A study of Mus musculus with 6 samples.

Results

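Utrophin and dystrophin are large cytoskeletal proteins that tie actin to a set of membrane proteins, the dystrophin glycoprotein complex. The transcripts of 8 genes of this complex were read in freshly isolated mouse MuSCs, the stem cells that lie between a myofiber and its basal lamina: *Utrn*, *Dmd*, *Dag1*, *Sgca*, *Sgcb*, *Sgcd*, *Sntb1* and *Sntb2*. They were chosen by name, with earlier results of these data known. They are 8 of the 25166 genes in the table, and all 8 have a row there.

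RNA-seq was performed on sorted MuSCs of Sirt6mKO and Ctrl mice of the strain C57BL/6, with 3 libraries per group. In Sirt6mKO mice, Cre recombinase driven by the *Pax7* promoter removes floxed exons of *Sirt6*, a deacetylase of histone H3. The Cre is constitutively active and acts in the whole *Pax7* lineage, so it is not confined to adult MuSCs. The study describes males of 12 weeks. The labels name the genotype of the controls wild type, whereas the supplementary legend describes floxed *Sirt6* without Cre. In either case the controls lack Cre, and an effect of Cre and one of the deletion cannot be told apart. No label names an mdx allele or another mutation of *Dmd* in either group. The labels do not say that the samples came from separate animals, and p-values then measure only the spread between these samples. The study asked in its other experiments whether SIRT6 restrains *Utrn* in muscle fibers, and the comparison here addresses the stem cells. In freshly isolated MuSCs the study's own RT-qPCR found no significant difference of *Utrn* between control and Sirt6mKO.

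In a myofiber, dystrophin sits beneath the sarcolemma and binds β-dystroglycan, which holds α-dystroglycan outside the cell, where its sugar chains bind laminin. The sarcoglycans, single-pass membrane proteins, brace dystroglycan, and the syntrophins are adaptors that bind dystrophin or utrophin inside the cell and carry signalling proteins and channels. Loss of dystrophin causes Duchenne muscular dystrophy, and utrophin, its autosomal paralogue, can take its place at the membrane. In MuSCs, dystrophin is known for its part in cell polarity and asymmetric division.

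Values are given as signal, the number of reads on a gene divided by 1 factor per library and rounded by the authors. Between 1267947 and 3211528 reads on genes lie behind a library, and the signal that 1 read adds was 0.729 to 1.792, most in control replicate 3. Levels of different genes are compared only as signal per kb of annotated exon. The targeted gene *Sirt6* was read at 19, 20 and 13 in the Sirt6mKO libraries and at 18, 17 and 20 in the Ctrl libraries, here and below in the order of the replicate numbers, and the groups overlapped. The table holds no value per exon, so the labels could not be checked on this gene. Of the quiescent MuSC markers all 12 had signal in every library, summing to 12763 to 13685 in Sirt6mKO and 14630 to 16333 in Ctrl. By limma at an adjusted p of 0.05, *Pax7* and *Chrdl2* were lower and *Cd34* was higher in Sirt6mKO. In fits that left out 1 library, the calls of *Pax7* and *Chrdl2* held in 6 of 6 and that of *Cd34* in 3. The study describes sorts by CD34 and sorts by reporter genes, and which of them served for these libraries was not established here. Markers of other cells were not the same in both groups: the 19 myofiber markers summed to 2475 to 4622 in Sirt6mKO and 1812 to 1970 in Ctrl, and the 10 fibroblast markers to 14799 to 17365 and 10734 to 16068. No myofiber marker was at 0 in any library, and of the fibroblast markers *Clec3b* was, in the controls alone. Since these are bulk samples, more cells of a type and more RNA per cell cannot be told apart.

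*Utrn* lies at chr10:12382188-12869365 on the minus strand of GRCm38, spans 487.178 kb and has 17.108 kb of annotated exon in 13 transcripts. The study also measured it by RT-qPCR, and its primers are shown because their product and the gene-level signal do not count the same set of transcripts. Both primers were found in 5 of these 13 transcripts. In the transcript of 74 exons the product is 155 bases long and joins exons 16 and 17. The pair is written 5′ to 3′ with no part in capitals.
forward primer: tggagaccgttcatgtgaga
reverse primer: caaaatccagttcagcagctc

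*Dmd* lies at chrX:82948870-85206141 on the plus strand of GRCm38, spans 2257.27 kb and has 23.801 kb of annotated exon in 14 transcripts. The RefSeq promoter table of GRCm38.p6 has entries for 6 of the 8 genes, not for *Sntb1* and *Sntb2*, and gives *Dmd* 2 start sites. The upstream one begins full-length dystrophin and the internal one a short product that lacks the actin-binding end. Within 250 bases of the upstream start 2 of the 14 transcripts begin, and within 250 bases of the internal start 5 of 14. The deposited signal sums over them. The 250 bases before each start are shown because they differ in make-up, with 45.2% G or C upstream and 60.0% at the internal start. Capitals mark the AP-1 motif TGANTCA and the GC box GGGCGG, both searched on both strands.
full-length *Dmd*, chrX:82948620-82948869, plus strand: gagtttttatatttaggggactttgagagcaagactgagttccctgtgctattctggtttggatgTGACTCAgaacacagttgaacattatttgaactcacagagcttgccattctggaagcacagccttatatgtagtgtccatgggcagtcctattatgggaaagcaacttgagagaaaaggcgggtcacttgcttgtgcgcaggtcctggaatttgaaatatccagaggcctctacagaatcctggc
internal *Dmd*, chrX:85048045-85048294, plus strand: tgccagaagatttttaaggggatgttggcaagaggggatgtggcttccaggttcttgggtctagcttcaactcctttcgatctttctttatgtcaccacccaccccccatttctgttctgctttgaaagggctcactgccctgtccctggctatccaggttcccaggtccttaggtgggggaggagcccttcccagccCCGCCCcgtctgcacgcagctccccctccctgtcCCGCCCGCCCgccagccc

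The full-length window held 1 AP-1 motif, which begins 185 bases before the start, and no GC box. The internal window held 3 GC boxes, at 52, 18 and 14 bases before the start, the last pair overlapping, and no AP-1 motif. Of all 32851 promoters of the table, 6.75% have the AP-1 motif and 32.7% a GC box in this window. Neither window held the ETS core CCGGAAG, which 6.91% of promoters have, on either strand. The start that the table gives for *Utrn* coincides with the first base of an exon that is a later exon in 2 other annotated transcripts, and the bases before it are therefore not shown. These matches describe letters and no binding was measured here.

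Of the 8 genes, only *Sntb1*, which codes for the adaptor β1-syntrophin, differed between Sirt6mKO and Ctrl by the test, and it was higher in Sirt6mKO. *Utrn*, *Dmd*, *Dag1*, *Sgca*, *Sgcb* and *Sntb2* did not pass, and *Sgcd* had too few reads to test. The test was limma-trend on log2(signal + 1) for genes of mean signal 5 or more, and calls required a change of 2-fold or more with an adjusted p (Benjamini-Hochberg) not above 0.05. So 1 of the 7 genes tested was called. Of all 14227 genes tested, 2.59% were called by this rule, 1.57% higher and 1.02% lower. The adjusted p alone called the same member and 4.52% of all genes tested, 2.64% higher and 1.88% lower. Among the 8 genes, 2 had every Sirt6mKO library above every control (*Sntb1* and the untested *Sgcd*), 2 had every one below (*Dag1* and *Sgcb*), and 4 overlapped. Over all genes tested these separations occurred in 11.1% and 10.1%. The median log2 fold change of the 7 tested genes was 0.01, beside 0.002 over all genes tested. No member shares exon bases with another gene in the annotation.

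**Figure D1:**
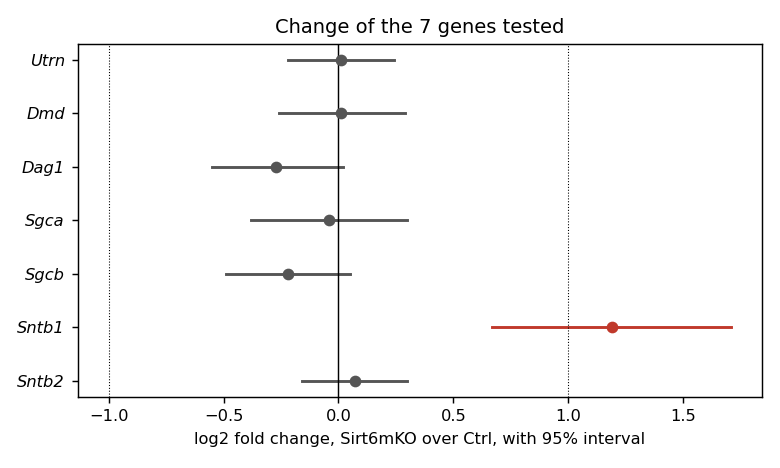
Log2 fold change of Sirt6mKO over Ctrl for the 7 genes tested, with the 95% interval of the limma-trend fit as a line. Dotted lines mark a log2 fold change of 1 in either direction, and red marks an adjusted p of at most 0.05. The interval of *Sntb1* lies above 0, at 0.67 to 1.71, and the other 6 intervals include 0.

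*Utrn* differed between the groups by less than the spread of the libraries. Its signal reached 2381, 2404 and 2310 in the Sirt6mKO libraries and 2375, 2506 and 2185 in the Ctrl libraries. The Sirt6mKO libraries all lay inside the range of the controls, of which replicate 2 was the highest and replicate 3 the lowest. The means were 2365 ± 49.0 and 2355 ± 161.4 (SD, n = 3 each), a log2 fold change of 0.01 with a standard error of 0.11 (limma-trend, Benjamini-Hochberg adjusted p = 0.98, exact permutation p = 0.8, two-sided). The 95% interval of the ratio ran from 0.857 to 1.18, and with 3 libraries per group the data do not exclude a difference inside it. Counting was not the limit, since 1219 to 3438 reads lie behind each value.

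*Dmd*, which codes for dystrophin, did not pass the test either. Its signal reached 2789, 2894 and 2910 in the Sirt6mKO libraries and 2736, 2483 and 3358 in the Ctrl libraries. The Sirt6mKO values again lay between those of the controls, and control replicate 3, the lowest for *Utrn*, was the highest for *Dmd*. With means of 2864 ± 65.7 and 2859 ± 450.3 (SD, n = 3 each), the log2 fold change was 0.01 (standard error 0.13, interval -0.26 to 0.29, limma-trend, Benjamini-Hochberg adjusted p = 0.97).

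The spread among the controls was larger than among the Sirt6mKO libraries for both genes, a difference that was not tested. The coefficient of variation of *Dmd* was 15.7% in Ctrl and 2.29% in Sirt6mKO, where counting of reads alone gives 2.09% and 1.71%. For *Utrn* it was 6.85% in Ctrl and 2.07% in Sirt6mKO, beside 2.30% and 1.89% from counting. The ratio of *Utrn* to *Dmd* per kb of exon was 1.19, 1.16 and 1.10 in the Sirt6mKO libraries and 1.21, 1.40 and 0.905 in the Ctrl libraries. Control replicate 3 was thus the single library in which *Dmd* exceeded *Utrn* on this scale, and it is also the library with the fewest reads. The groups did not differ in this ratio beyond their spread (exact permutation p = 0.8, two-sided, n = 3 each).

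**Figure D2:**
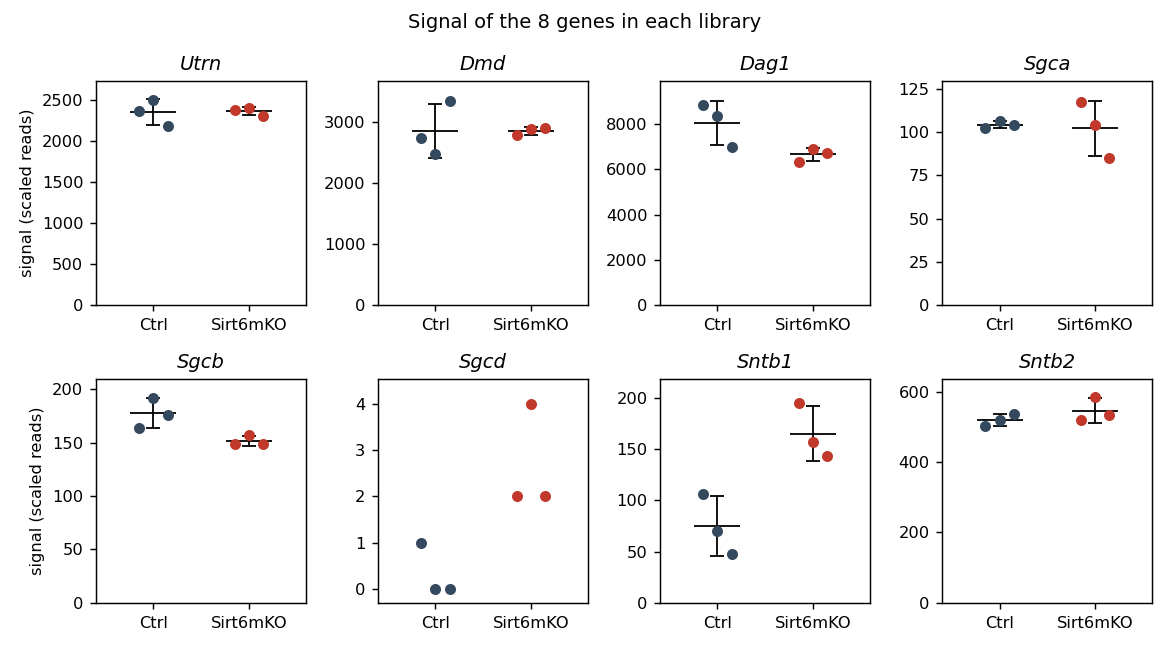
Signal of each of the 8 genes in the 3 Ctrl and 3 Sirt6mKO libraries, with 1 point per library on a linear axis that differs between panels. Bars show the mean and SD except for *Sgcd*, whose values are too low. *Utrn* and *Dmd* overlap between groups, the *Sntb1* points of Sirt6mKO lie above those of Ctrl, and those of *Dag1* and *Sgcb* lie below.

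*Dag1*, which codes for the precursor of both α- and β-dystroglycan, had the highest level of the 8 genes. It had a signal of 6342, 6922 and 6742 in Sirt6mKO and 8850, 8365 and 6970 in Ctrl. Every Sirt6mKO library lay below every control, but control replicate 3 exceeded Sirt6mKO replicate 2 only slightly. From means of 6669 ± 296.9 and 8062 ± 976 (SD, n = 3 each) the log2 fold change was -0.27 (standard error 0.13, interval -0.55 to 0.02), and it did not pass the test (limma-trend, Benjamini-Hochberg adjusted p = 0.31). Its exact permutation p was 0.1, the smallest that 3 libraries against 3 allow. The gene lies at chr9:108204634-108263958.

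Of the sarcoglycans, *Sgca* and *Sgcb* were present at moderate levels and *Sgcd* was nearly absent. *Sgca*, coding for α-sarcoglycan (chr11:94962791-94976327), had a signal of 117, 104 and 85 in Sirt6mKO and 102, 106 and 104 in Ctrl. The Sirt6mKO libraries lay on both sides of the controls, which were close together, and the log2 fold change was -0.04 (standard error 0.16, interval -0.38 to 0.30, limma-trend, Benjamini-Hochberg adjusted p = 0.93). *Sgcb*, coding for β-sarcoglycan (chr5:73632749-73647790), had a signal of 149, 157 and 149 in Sirt6mKO and 164, 192 and 176 in Ctrl. All Sirt6mKO values were below all control values, the log2 fold change being -0.22 (standard error 0.12, interval -0.49 to 0.05), which did not pass the test (limma-trend, Benjamini-Hochberg adjusted p = 0.39). *Sgcd*, coding for δ-sarcoglycan (chr11:46896253-47988969), had a signal of 2, 4 and 2 in Sirt6mKO and 1, 0 and 0 in Ctrl. These values stand for 2, 5 and 2 reads and for 1, 0 and 0 reads, and the 0 of control replicates 2 and 3 allows a signal of up to 2.19 and 5.38 by a limit of 3 reads, for counting error only. *Sgcd* was therefore not tested and no fold is given.

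*Sntb1* (chr15:55636388-55906949), the called gene, had a signal of 195, 157 and 143 in Sirt6mKO and 106, 70 and 48 in Ctrl. Each Sirt6mKO library exceeded each control, and the nearest values were those of Sirt6mKO replicate 3 and control replicate 1. With means of 165 ± 26.9 and 74.7 ± 29.3 (SD, n = 3 each), *Sntb1* rose 2.29-fold (95% interval 1.6 to 3.28), a log2 fold change of 1.19 with a standard error of 0.24 (limma-trend, Benjamini-Hochberg adjusted p = 0.014). Between 27 and 234 reads lie behind these values. The call rests on few libraries: the adjusted p was 0.11 without Sirt6mKO replicate 1, 0.067 without Sirt6mKO replicate 2 and 0.054 without control replicate 2, and without control replicate 3 the log2 fold change was 0.92, under the fold threshold. The summed myofiber markers given above were also higher in each Sirt6mKO library than in each control. Single markers, named after their values were seen, did not all do so. *Ckm* had a signal of 165, 186 and 27 in Sirt6mKO and 31, 31 and 23 in Ctrl. For *Ttn* it was 819, 917 and 657 against 451, 321 and 518, without overlap. The sums of the fibroblast markers overlapped, but *Col3a1*, with a log2 fold change of 0.06, had the largest signal in them. The median log2 fold change was 0.95 for the tested myofiber markers and 1.36 for the fibroblast markers. Of the tested markers, 5 of 18 for myofibers and 4 of 10 for fibroblasts passed the adjusted p. All of these were higher in Sirt6mKO, where 2.64% of all genes tested were. With voom on recovered reads 3 myofiber and 4 fibroblast markers passed. In the fits that left out 1 library, *Acta1* and *Actn3* held in 1 of 6, *Mylpf* and *Neb* in 3 and *Ttn* in 4. *Col1a1* and *Pdgfra* held in 1 of 6, and *Col1a2* and *Clec3b* in 6. The part of these markers in the rise of *Sntb1* was not tested.

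*Sntb2*, coding for β2-syntrophin (chr8:106935750-107019714), had a signal of 518, 585 and 533 in Sirt6mKO and 502, 518 and 536 in Ctrl. Its groups overlapped, and the log2 fold change was 0.07 (standard error 0.10, interval -0.16 to 0.30, limma-trend, Benjamini-Hochberg adjusted p = 0.79). The ratio of *Sntb1* to *Sntb2* per kb of exon was 0.732, 0.522 and 0.522 in the Sirt6mKO libraries and 0.410, 0.263 and 0.174 in the Ctrl libraries. Each Sirt6mKO ratio exceeded each control ratio, with means of 0.592 ± 0.121 and 0.282 ± 0.119 (SD, n = 3 each). The exact permutation p was 0.1, and 0.2 after Benjamini-Hochberg adjustment over the 4 ratios between members that were computed, all chosen after values were seen.

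Per kb of exon the levels in the controls fell in the order *Dag1*, *Utrn*, *Dmd*, *Sgca*, *Sntb2*, *Sgcb*, *Sntb1* and *Sgcd*. *Dag1* stood at 1268 ± 153.5 signal per kb (SD, n = 3). *Utrn* at 137.7 ± 9.43 and *Dmd* at 120.1 ± 18.9 did not differ beyond their spread, with ranges of 127.7 to 146.5 and 104.3 to 141.1 signal per kb. Over all libraries *Dag1* stood higher than 99.9% and *Utrn* higher than 96.7% of tested genes per kb. The paper describes *Utrn* mRNA in MuSCs as very low, and the measures were not compared here. On the length of the longest annotated transcript, chosen after values were seen, *Utrn* and *Dmd* came to 190.2 ± 13.0 and 191.8 ± 30.2 signal per kb, so their order depends on the length used. Below them *Sgca* stood at 59.9 ± 1.15, *Sntb2* at 50.1 ± 1.64, *Sgcb* at 43.8 ± 3.47 and *Sntb1* at 14 ± 5.5 signal per kb, with no overlap between neighbours in the controls. On the longest transcript *Sntb2* and *Sgcb* overlapped there, at 50.5 to 53.9 and 43.3 to 50.7 signal per kb. In Sirt6mKO, *Sgca* and *Sntb2* overlapped at 49.0 to 67.4 and 50 to 56.5 signal per kb, and *Sntb1* reached 26.9 to 36.6, just under *Sgcb* at 36.8 to 38.7. *Dag1* exceeded *Utrn* per kb 7.17, 7.75 and 7.85 times in Sirt6mKO and 10, 8.98 and 8.58 times in Ctrl, without overlap (exact permutation p = 0.1, adjusted over the 4 ratios 0.2, n = 3 each).

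**Figure D3:**
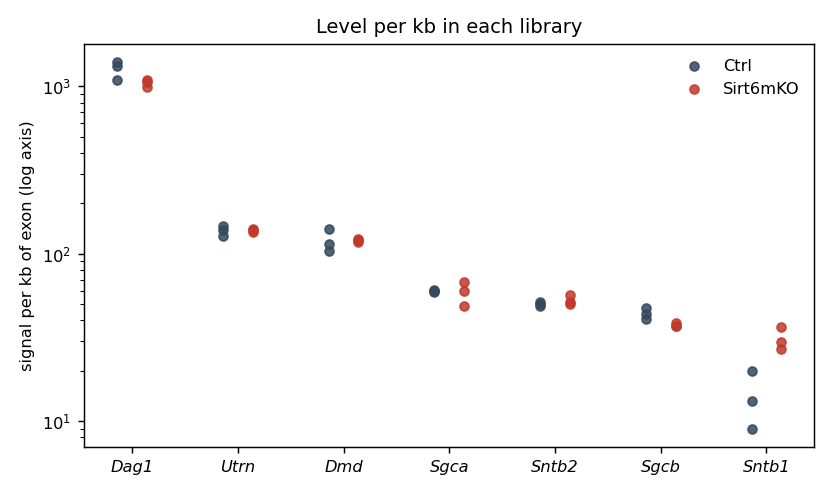
Signal per kb of annotated exon in each library, on a log axis, for 7 of the 8 genes ordered by their mean in Ctrl. *Sgcd*, at 0 in a pair of libraries, is left out. *Dag1* stands at 997.6 to 1392 signal per kb over the 6 libraries, above the other genes, and *Sntb1* at 9.02 to 19.9 in Ctrl and 26.9 to 36.6 in Sirt6mKO.

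The genes whose signal followed *Utrn* most closely over the 6 libraries were *Ndufs8*, *Drap1* and *Sp1*, at root mean square distances of 0.024, 0.029 and 0.03 on the centred log2 scale among 7393 other genes of mean signal 50 or more. For *Dmd* they were *Mplkip*, *Jmjd6* and *Tra2a*, at 0.017, 0.024 and 0.026. These libraries share their depth and scaling across all genes, and the likeness is a description.

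The other genes of the complex did not pass the test. Of 13 listed, 8 were tested and 0 reached an adjusted p of 0.05 (limma-trend, Benjamini-Hochberg), 2 had an unadjusted p under 0.05, voom also gave 0, and the median log2 fold change was 0.28. The others are not analysed here. *Drp2*, coding for dystrophin-related protein 2, had the highest level of the list, with 217.3 ± 16.2 signal per kb in Sirt6mKO and 218.4 ± 4.62 in Ctrl (SD, n = 3 each). In each library *Drp2* stood at 205 to 235.6 signal per kb, above both *Utrn* and *Dmd* on this scale. *Dtna*, coding for α-dystrobrevin, and *Sgce*, coding for ε-sarcoglycan, are named after their values were seen. *Dtna* had a signal of 20, 37 and 39 in Sirt6mKO and 10, 17 and 14 in Ctrl, a log2 fold change of 1.14 (interval 0.43 to 1.86, adjusted p = 0.074 by limma-trend with Benjamini-Hochberg adjustment). *Sgce* had a signal of 191, 200 and 215 in Sirt6mKO and 183, 133 and 136 in Ctrl, a log2 fold change of 0.43 (interval 0.12 to 0.75, adjusted p = 0.13 by the same test). Both had groups that did not overlap and neither reached the threshold, but *Sgce* passed without control replicate 1 at an adjusted p of 0.036 (limma-trend). *Sspn*, coding for sarcospan, passed in the other direction without control replicate 3 at an adjusted p of 0.018 (limma-trend) and a log2 fold change of -0.67, beside -0.36 with all libraries.

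Of the enzymes that build the laminin-binding sugars of α-dystroglycan, 0 passed the test by limma-trend or voom, and 0 had an unadjusted p under 0.05. All 17 had a row, 16 were tested, *B4gat1* was too low, and the median log2 fold change was -0.12, with 5 genes above 0 and 11 below.

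The extracellular partners of dystroglycan and the matrix around it were the list with the most calls. The lists too were chosen with earlier results of these data known. Of 15 listed, 14 were tested. At the adjusted p 6 rose and none fell, where 2.64% and 1.88% of all genes tested did. The median log2 fold change was 0.63. *Lama5*, the α5 chain of laminins, had a signal of 471, 447 and 345 in Sirt6mKO and 237, 207 and 152 in Ctrl (log2 fold change 1.09, limma-trend, Benjamini-Hochberg adjusted p = 0.0035). *Lamb2*, the laminin β2 chain, had a signal of 873, 949 and 953 against 625, 668 and 543 (log2 fold change 0.60, limma-trend, adjusted p = 0.0091). For both, all Sirt6mKO libraries exceeded all controls.

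*Bgn*, coding for the proteoglycan biglycan, which binds dystroglycan and sarcoglycans, had a signal of 1894, 1500 and 1609 against 1081, 604 and 758 (log2 fold change 1.07, limma-trend, adjusted p = 0.005). *Nid1*, coding for the basement membrane linker nidogen-1, had 999, 897 and 1370 against 679, 227 and 183 (log2 fold change 1.81, limma-trend, adjusted p = 0.013). The collagen VI chains *Col6a2* and *Col6a3* passed narrowly, with log2 fold changes of 0.66 and 2.11 and adjusted p of 0.044 and 0.047 (limma-trend, Benjamini-Hochberg). The calls of *Lama5* and *Bgn* held in 6 of 6 fits that left out 1 library and that of *Lamb2* in 5, lost without Sirt6mKO replicate 2 (adjusted p = 0.054). *Nid1* held in 3 of 6. It was lost when Sirt6mKO replicate 1 or 2 or control replicate 2 was left out, with adjusted p of 0.052 to 0.076. *Col6a2* held only without control replicate 1 and *Col6a3* only without Sirt6mKO replicate 1, and the other fits gave them an adjusted p of up to 0.21 and 0.22. The log2 fold change of *Col6a3* ran from 1.47 without Sirt6mKO replicate 2 to 2.85 without Sirt6mKO replicate 1. *Col6a2* was also lost with a trimmed mean of M values, a pseudocount of 0.1, no filter or a mean of at least 50 (adjusted p = 0.053 to 0.082), and *Col6a3* with a pseudocount of 0.1 or no filter (adjusted p = 0.056 and 0.089). With voom on recovered reads 6 also passed, *Lamb1* in place of *Col6a3*.

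The α2, β1 and γ1 chains, which form the chief laminin of muscle, did not pass the test, but their values were not alike. *Lama2*, named after its values were seen, had a signal of 3657, 3786 and 3779 in Sirt6mKO and 3860, 3178 and 3198 in Ctrl, a log2 fold change of 0.14 (limma-trend, Benjamini-Hochberg adjusted p = 0.60). *Lamc1*, the laminin γ1 chain with 507.1 signal per kb in Ctrl and 472 in Sirt6mKO, had a log2 fold change of -0.11 (limma-trend, adjusted p = 0.78). *Lamb1*, the laminin β1 chain, likewise named after its values were seen, had a signal of 328, 297 and 433 in Sirt6mKO and 306, 155 and 133 in Ctrl, a log2 fold change of 0.91 (interval 0.36 to 1.46, limma-trend, adjusted p = 0.064). Its groups overlapped through control replicate 1, and it passed without that library (adjusted p = 0.0017) and with voom (adjusted p = 0.049). Of the fibroblast markers 4 of 10 passed the adjusted p, all higher, where 2.64% of all genes tested were higher. Without a library, *Col1a2* and *Clec3b* held in 6 of 6 fits, and *Col1a1* and *Pdgfra* in 1. The fibroblast markers share *Dcn* with this list, and their part in the matrix genes was not tested.

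Of 15 cytoskeletal and adhesion partners, 13 were tested, 1 rose and 1 fell at the adjusted p, where 2.64% and 1.88% of all genes tested did, and the median log2 fold change was -0.09. *Des*, coding for the intermediate filament protein desmin, had a signal of 2483, 2026 and 2433 in Sirt6mKO and 1516, 1794 and 1309 in Ctrl (log2 fold change 0.59, limma-trend, Benjamini-Hochberg adjusted p = 0.026). *Ank3*, coding for ankyrin-G, which helps to retain dystrophin and dystroglycan at the membrane, had 1704, 1948 and 2293 against 2773, 2822 and 2687 (log2 fold change -0.49, limma-trend, adjusted p = 0.042). In both cases the groups did not overlap, but the call of *Des* was kept in 2 and that of *Ank3* in 1 of 6 fits without a library, with an adjusted p of up to 0.14 and 0.20. *Des* was lost without Sirt6mKO replicate 1 or 3 or control replicate 1 or 3, and *Ank3* in every such fit but the one without Sirt6mKO replicate 3. *Ank3* was also lost with no filter on low values (adjusted p = 0.069). *Actb*, coding for β-actin, had the highest level per kb of this list, and a log2 fold change of -0.07 (limma-trend, adjusted p = 0.81).

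All 18 genes listed as known to act on *Utrn* transcription or transcript stability were tested. At the adjusted p 2 rose and none fell, where 2.64% and 1.88% of all genes tested did, and the median log2 fold change was 0.08. *Jun*, an AP-1 subunit, had a signal of 4090, 4300 and 5182 in Sirt6mKO and 2358, 2943 and 2481 in Ctrl (log2 fold change 0.80, limma-trend, Benjamini-Hochberg adjusted p = 0.0047). *Fos*, its partner in AP-1 and the gene with the highest level per kb here, had 3442, 3757 and 4355 against 1951, 2632 and 2302 (log2 fold change 0.75, limma-trend, adjusted p = 0.0081). Every Sirt6mKO library exceeded every control for both, and both calls held in 6 of 6 fits without a library. The remaining 16 did not pass, among them the ETS factor subunit *Gabpa*, named after its values were seen, with a log2 fold change of 0.23 (interval -0.03 to 0.48, limma-trend, adjusted p = 0.35), *Ppargc1a*, a transcriptional coactivator named for the same reason, with 0.90 (interval 0.33 to 1.48, groups without overlap, limma-trend, adjusted p = 0.082), and *Sirt6* itself with -0.10 (interval -0.73 to 0.54, limma-trend, adjusted p = 0.91). *Utrn*, next to these, had the interval of -0.22 to 0.24 on the log2 scale.

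**Figure D4:**
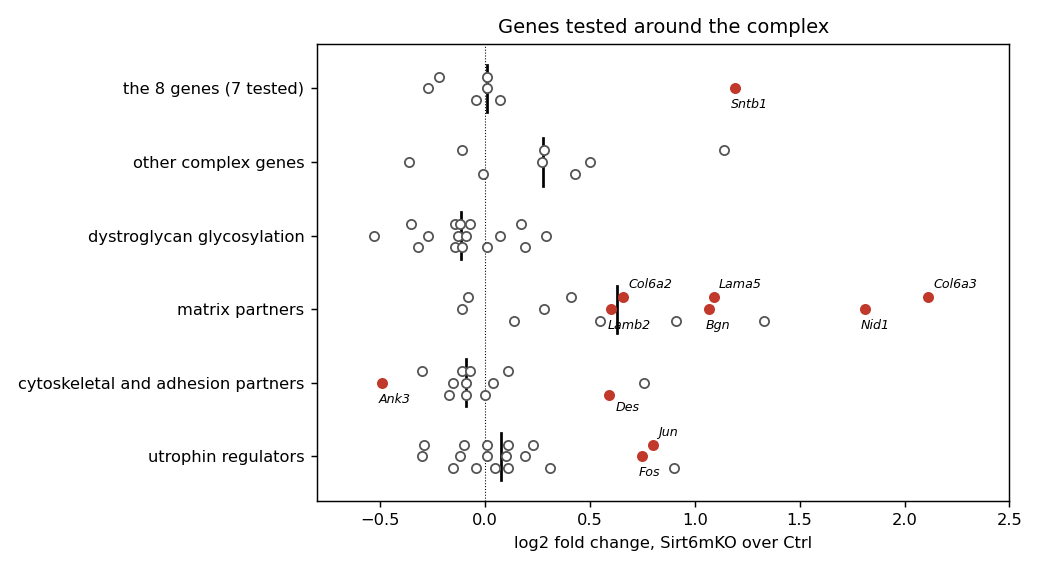
Log2 fold change of Sirt6mKO over Ctrl for every tested gene of the complex and of 5 lists around it, with 1 point per gene, spread vertically for legibility. Filled red points have an adjusted p of at most 0.05 and are named, open points do not, and black lines mark list medians, of which that of the matrix partners, 0.63, is the highest.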

How the data were processed

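RNA of FACS-isolated MuSCs from 3 Sirt6mKO and 3 Ctrl samples was analysed, grouped by their labels. Per the submitters' processing notes, reads were handled with Trimmomatic 0.39, STAR 2.7.10a, featureCounts 2.0.2 and DESeq2 1.30.1 on mm10, while the paper names other tools and versions. The labels name a SMARTer stranded kit with RiboGone depletion and the paper another kit. Use of strand in counting is not given in the sources used here.

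The deposited signal is reads over a library factor, rounded by the authors. This was read from whole numbers that never occur (11 of those from 1 to 60 in control replicate 1, 27 in control replicate 3). Factors were recovered as 0.558 to 1.372. Because values were scaled and rounded, no test for counts served as the main test, and voom on recovered reads was run as an alternative.

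Here log2(signal + 1) was fitted by limma-trend (limma 3.58.1, R 4.3.3) for the 14227 genes whose mean signal was 5 or more. Adjusted p are Benjamini-Hochberg over all of these. A gene was called at an adjusted p of at most 0.05, with or without a 2-fold change, as the text says. Single values were compared by exact two-sided permutation tests (scipy 1.17.1), which cannot go below 0.1. The fit was checked on simulated data, with 50 genes set to each change. At an adjusted p of 0.05 it found 35 of 50 at 2-fold and 32 of 50 at 0.5-fold. At 4-fold and 0.25-fold it found 50 and 38 of 50. Changes of 2-fold can thus be missed. Limits of 3 reads and the counting spread cover counting error only.

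Exon lengths and positions came from GENCODE for GRCm38, which held 99.7% of the identifiers, and 99.2% of these had an unchanged start and end. Promoters came from RefSeq for GRCm38.p6. The members and lists were chosen with earlier results of these data known. Named genes are all members, list genes past the adjusted p, the gene with the highest level per kb in each list, *Sirt6*, and the 3 genes most like *Utrn* and *Dmd*, and others are said to be named after their values were seen. Some items of the lists are not reported here. Besides those in the text, marker lists were read for endothelial (summed signal 390 to 463 in Sirt6mKO, 477 to 579 in Ctrl), mural (4347 to 5438, 2793 to 3836), Schwann (52 to 109, 84 to 121) and immune cells (42 to 82, 43 to 76) and for commitment (269 to 541, 469 to 920). Most of the mural sums was *Notch3* (3688 to 4873, 2112 to 3289). Most of the endothelial sums was *Tek* (349 to 412, 430 to 562), named after its values were seen. The median log2 fold change was 0.22 for the 6 mural and 0.63 for the 3 endothelial markers tested. None of the endothelial, mural, Schwann or immune markers tested passed the adjusted p (limma-trend), 2 had an unadjusted p under 0.05, voom passed 1 (*Notch3*), and *Kdr*, *Flt1*, *Cldn5*, *Kcnj8*, *Ncmap*, *Cdh19*, *S100b*, *Csf1r* and *Lyz2* were at 0 in at least 1 library. Of the 8 immune markers 4, and of the 8 endothelial ones *Emcn*, were not analysed here. Of 7 commitment genes tested, *Myf6* was higher (log2 fold change 1.88, adjusted p = 0.0068) and *Myod1* lower (-0.86, adjusted p = 0.045), kept in 5 and in 1 of 6 fits without a library, and 5 had an unadjusted p under 0.05.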

Additional observations from a re-analysis of the deposited data

How the results depend on the processing

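Alternatives changed 1 choice at a time: 3 other scalings, pseudocounts of 0.1 and 5, no filter or a mean of at least 50, voom on recovered reads, a replicate block, and each library left out. The log2 fold change of *Utrn* was -0.05 to 0.05 over all 15, and turned below 0 under scaling by library total (-0.01) and without Sirt6mKO replicate 2 (-0.0039) or control replicate 3 (-0.05). That of *Dmd* was -0.08 to 0.14, below 0 under library total (-0.0036) and without control replicate 1 (-0.01) or 2 (-0.08). Without a library *Sgca* was at -0.14 to 0.08, above 0 without Sirt6mKO replicate 3. Neither *Utrn* nor *Dmd* passed the adjusted p in any of the 15, where it was at least 0.86 for *Utrn* and 0.59 for *Dmd*. Without a library, between 0 and 1 of the genes passed both thresholds and between 0 and 1 the adjusted p alone, and between 5 and 11 genes of the surrounding lists passed, against 10 with all 6.

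Replicate numbers are shared by the groups, and whether they pair the samples was not settled. Deviations of same-numbered libraries correlated at 0.05, 0.05 and 0.24, and those of different-numbered libraries at -0.17 to 0.14. Sirt6mKO replicate 1 correlated best with control replicate 2, at 0.06. With the number as a replicate block, the log2 fold changes of *Utrn* and *Dmd* were 0.01 and 0.01, the adjusted p of *Sntb1* was 0.0021, 1 member passed both thresholds, 14 genes of the lists passed, the added ones being *Dtna*, *Lamb1*, *Ppargc1a* and *Hspg2* at adjusted p of 0.038, 0.04, 0.045 and 0.049, and 814 genes against 643 passed over the whole table (limma-trend, Benjamini-Hochberg). Depth limits *Sgcd*, with at most 5 reads in a library.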
